A study of Mus musculus with 13 samples.

Results

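Ube2t and 9 Fanconi anemia genes, Fanca, Fancb, Fancc, Fancd2, Fance, Fancg, Fanci, Fancl and Fancm, were followed in single mouse oocytes of both nucleolus types at the germinal vesicle (GV) and metaphase II (MII) stages. The 10 genes were taken by name, with earlier results of these data known. All 10 were among the 18939 genes with counts and among the 49686 genes with FPKM values. The Fanconi anemia pathway repairs interstrand crosslinks, lesions that join both strands of DNA. In this pathway a nuclear core complex with the ubiquitin ligase FANCL and the ubiquitin-conjugating (E2) enzyme UBE2T attaches a single ubiquitin to FANCD2 and FANCI, and this pair then brings in nucleases and recombination proteins. Mice that lack genes of the pathway are known for a loss of germ cells. Full-grown oocytes of the SN type are largely silent in transcription, whereas those of the NSN type still transcribe. During maturation mRNAs decay and their poly(A) tails lengthen or shorten.

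The libraries came from 13 single oocytes of C57BL/6 females aged 3 to 4 weeks, collected 48 h after PMSG. According to the study, FBL–GFP mRNA was injected together with H2B-mCherry mRNA, so none of the groups is an uninjected control. The oocytes were held at the GV stage for 6 h by 10 µM Cilostamide, a phosphodiesterase inhibitor, and were sorted by the FBL–GFP pattern of the nucleolus into the non-surrounded (NSN) and the surrounded (SN) type. There were 3 SN GV and 3 NSN GV oocytes. The MII oocytes were released from the inhibitor and matured in culture, 4 from SN (SN-MII) and 3 from NSN GV oocytes (NSN-MII). Only oocytes that reached MII could enter the MII groups. The labels do not say which oocytes came from the same female, so p-values measure the spread between these oocytes only.

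The libraries held 7140416 to 8846287 counts and 11593 to 13342 genes with a count. All 10 oocyte markers, such as Gdf9 and Zp3, were present in every group. The 14 markers of cumulus and granulosa cells summed to 44.7 to 81.3 CPM (counts as a share of the library, scaled by the TMM factors of edgeR) in the GV and to 91.6 to 173 CPM in the MII libraries. Most of this was the aromatase gene Cyp19a1, while Fst, Foxl2 and Lhcgr had no count in any group, and the part of these markers in the differences between stages was not tested. CPM and FPKM are shares of a library, and SMART-seq2 primes on poly(A) tails. Hence fewer transcripts, shorter tails and a change in the total mRNA of the oocyte cannot be told apart.

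The ends of the 3′ UTRs are shown first, since in maturing oocytes the elements TTTTAT and TTTTAAT near the AATAAA or ATTAAA signal are known to steer poly(A) tail length. These letters were searched on the sense strand in the last 100 bases of the 3′ UTR of the principal GENCODE M21 transcript. Among 19603 genes, 13.8% held TTTTAT, 5.05% TTTTAAT and 17.9% either of them, while 64.5% held AATAAA, 20.3% ATTAAA and 78.4% either signal. Of the 10 members, Ube2t and Fancm held TTTTAT and Fance held TTTTAAT, which overlaps its AATAAA. The 3′ UTR of Fancb has only 85 bases, and that of Fanca held none of the 4 motifs. The lines give Ube2t with its element and its signal, then the other 2 genes with an element. Fancl and Fancg follow as examples of genes that held a signal but no element. Fancb, Fancc, Fancd2 and Fanci also held a signal and no element in these bases and are not shown. The motif is in capitals.
Ube2t, TTTTAT: aaggatagtttgTTTTATttatcttgtaca
Ube2t, AATAAA: ttaaacttgaaaAATAAAtaatacttaatg
Fancm, TTTTAT: ctcaattctgaaTTTTATcagctggtgggc
Fance, TTTTAAT: attttgtaacagTTTTAATaaaaagaagac
Fancl, AATAAA: tcaacagtgctaAATAAAacaacataccaa
Fancg, ATTAAA: tcttaagttactATTAAAattttgaattgc
All 6 windows are exonic, in the 3′ UTR, with positions in GRCm38 (mm10). Those of Ube2t are chr1:134974081-134974110 and chr1:134974129-134974158 on the plus strand, where TTTTAT starts 70 and AATAAA 22 bases before the annotated end. The window of Fancm is chr12:65131980-65132009 (plus strand), that of Fance chr17:28326533-28326562 (plus strand), that of Fancl chr11:26471845-26471874 (plus strand) and that of Fancg chr4:43002346-43002375 (minus strand). A match of letters is a description and not a tested site.

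Levels between genes were compared in FPKM, which divides by transcript length. Ube2t was far above the Fanc genes in GV oocytes, with 696 ± 28.4 FPKM in SN GV (SD, n = 3) and 604 ± 74.3 FPKM in NSN GV oocytes (SD, n = 3). Fancc, a subunit of the core complex, came next with 78.2 ± 2.58 and 77.2 ± 9.91 FPKM. The other 8 members lay at means of 2.77 to 15.3 FPKM. In SN GV oocytes Fancd2 had 14.5 to 16.8 FPKM, above every value of the other 7, and Fance, with 1.45 to 3.56 FPKM, overlapped Fancb and Fancm alone. In NSN GV oocytes the range of Fancd2, 1.88 to 21.0 FPKM, spanned those of the other 7. In SN-MII oocytes the order began in the same way, with Ube2t at 434 ± 256 FPKM (SD, n = 4), Fancc at 88.1 ± 12.5 FPKM and Fancd2 at 30.3 ± 3.55 FPKM. In NSN-MII oocytes Fancc came first with 80.9 ± 6.31 FPKM (SD, n = 3), above Ube2t with 38.7 ± 13.6 FPKM and Fancd2 with 25.9 ± 2.004 FPKM. The values of Ube2t and Fancd2 overlapped there, since the lowest Ube2t library had 25.3 and the highest Fancd2 library 27.8 FPKM. The number of counts per FPKM, which follows the transcript length that RSEM assigned, varied between libraries by 3.83-fold for Fanca, 3.02-fold for Fance, 2.87-fold for Fancm, 2.49-fold for Fancl and 1.98-fold for Fancg, against a median of 1.18-fold over 5280 genes. FPKM levels of these 5 genes are less certain for that reason.

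**Figure D1:**
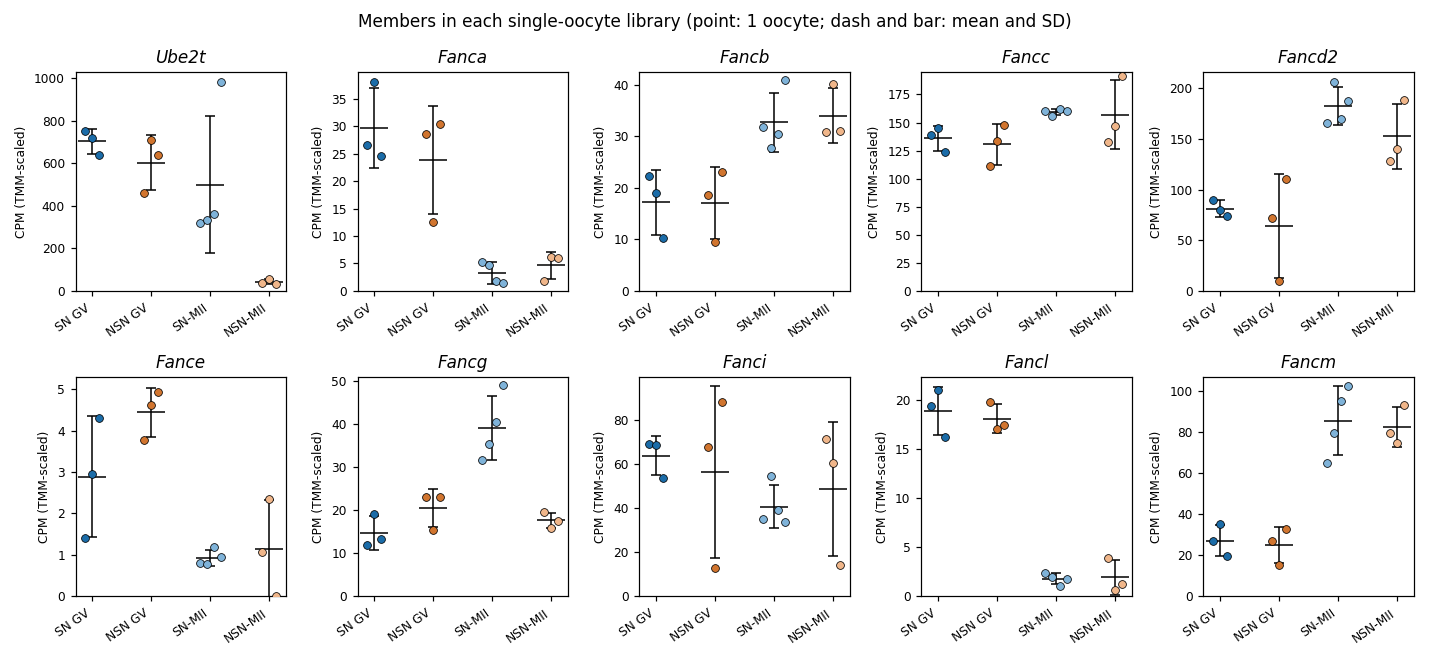
CPM of the 10 genes (1 panel per gene, linear axis from 0) in the SN GV, NSN GV, SN-MII and NSN-MII oocytes. Each point is 1 oocyte, and the dash and bar give the mean and SD. Ube2t lies at 31.9 to 54.6 CPM in NSN-MII and at 317 to 982 CPM in SN-MII oocytes, and Fancl and Fanca are lower in every MII than in every GV oocyte.

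Ube2t encodes the E2 enzyme of the pathway. Its CPM was 751, 721 and 637 in the SN GV oocytes and 461, 709 and 638 in the NSN GV oocytes. It was 317, 333, 362 and 982 in the SN-MII oocytes and 38.7, 54.6 and 31.9 in the NSN-MII oocytes. Both GV groups overlapped, 3 of the 4 SN-MII oocytes lay below every GV oocyte and the fourth above them all, and the NSN-MII oocytes lay below the rest. Even the NSN-MII libraries held 189 to 441 counts of Ube2t, so the spread between oocytes, not the counting error, sets the precision. Ube2t and Fancg are in the study's own list of genes that differ between NSN-MII and SN-MII oocytes. The study names fold change and P as the limits of that list, unlike the adjusted p used below. The 10 genes were selected on results that showed Ube2t in this contrast. NSN against SN at MII and the interaction of type and stage are therefore given for the members as descriptions, with no p.

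In NSN-MII relative to SN-MII oocytes Ube2t was 11.9-fold lower, a log2 fold change of −3.57 ± 0.45 (SE from edgeR, n = 3 and 4). Without the fourth SN-MII library the log2 fold change was −3.01. The interaction, that is the difference between types at MII less that at GV, was −3.35 ± 0.51, and −2.79 without that library. Within SN oocytes Ube2t had a log2 fold change from GV to MII of −0.50 ± 0.33, which was −1.06 without the fourth SN-MII library. Within NSN oocytes it was −3.85 ± 0.40, or 14.4-fold lower at MII. No p is given for these 2 values, as their difference is the interaction by which Ube2t was chosen.

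Fancg, a core complex subunit that binds FANCA, was the other member whose MII groups did not overlap. It had 31.7, 35.5, 40.5 and 49.1 CPM in SN-MII and 19.5, 16.0 and 17.4 CPM in NSN-MII oocytes. In the GV groups it had 11.9, 19.2 and 13.2 CPM (SN) and 23.1, 15.4 and 23.0 CPM (NSN), which overlapped. The SN-MII oocytes were thus above all others, and the NSN-MII oocytes were within the range of the GV oocytes. At MII the log2 fold change, NSN over SN, was −1.15 ± 0.25, and the interaction was −1.63 ± 0.40. From GV to MII Fancg had a log2 fold change of 1.41 ± 0.28 in SN and of −0.22 ± 0.29 in NSN oocytes.

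Of the 9 members tested at MII, 1 (Ube2t) was called at an adjusted p under 0.05, against 0.279% of the 10028 genes tested, and 2 (Ube2t and Fancg) had groups that did not overlap, against 10.2%. Since the genes were chosen with this contrast known, nothing is read from these counts. Fance was left out by the filter on low counts. The other 7 members had log2 fold changes of −0.26 (Fancd2) to 0.48 (Fanca) with SE of 0.16 to 0.75, and their oocytes overlapped between the types. With 1 library left out, Fancl ran from −1.01 to 0.53, Fanci from −0.11 to 0.71 and Fanca from 0.19 to 0.87, and Fancb, Fancc and Fancm also took both signs. The median over the 9 members was −0.03, beside 0.02 over all genes tested.

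At the GV stage, no member was called between NSN and SN oocytes, with an adjusted p of 1 for each (quasi-likelihood test of edgeR, adjusted by Benjamini-Hochberg). No gene of the 10839 tested was called either (0%), in DESeq2 and limma as well, while 183 had an unadjusted p under 0.05. No member had groups that did not overlap, against 6.03% of all genes. The fold changes ranged on the log2 scale from −0.31 ± 0.65 for Fancd2 to 0.62 ± 0.54 for Fance, and the best determined were Fancc at −0.04 ± 0.16 and Ube2t at −0.21 ± 0.16. With 3 oocytes per type the SE of the members ran from 0.16 to 0.65. A small difference was therefore not detectable. For members with a high SE, such as Fancd2 at 0.65, a larger difference could also be missed.

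The test from GV to MII is read for 8 of the 10 members, without Ube2t and Fancg, which were chosen by their MII values. Of these 8, Fancl, Fanca and Fance fell, and Fancm, Fancd2 and Fancb rose (edgeR, adjusted p under 0.05). Fancc and Fanci did not pass the test. These calls are near the background, because 68.5% of 11375 genes passed the same test, 31.7% upward and 36.8% downward. The oocytes of both stages did not overlap in 5 members (Fanca, Fancb, Fancd2, Fancl and Fancm), against 47.4% of all genes. The median log2 fold change of the members was −0.09, beside −0.10 over all genes. None of the calls read here was lost when any 1 of the 13 libraries was left out.

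Fancl, which encodes the ubiquitin ligase that works with UBE2T, had the largest drop of the members over both types. In NSN oocytes alone the value of Ube2t, given above, was lower. Fancl had 16.3 to 21.1 CPM in the 6 GV oocytes and 0.6 to 3.9 CPM in the 7 MII oocytes, where the counts ran from 4.55 to 32.7. Every MII oocyte lay below every GV oocyte, and the log2 fold change was −3.30 ± 0.36 (edgeR, adjusted p = 5.4e-07), or 9.88-fold lower. The log2 fold change was −3.39 ± 0.48 in SN and −3.22 ± 0.53 in NSN oocytes, with an interaction of 0.18 ± 0.69. Its exons share 462 bases with Vrk2 on the opposite strand, and Vrk2 had 4.96 CPM at GV and 3.99 CPM at MII. Strand is not given for these libraries, so reads of such pairs cannot be assigned with certainty. Fanca, Fancc, Fancd2, Fance, Fanci and Fancm also share exonic bases with a gene on the opposite strand, and Ube2t, Fancb and Fancg do not.

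Fanca, a subunit of the core complex, had 24.5, 26.5 and 38.1 CPM in SN GV and 12.5, 28.6 and 30.4 CPM in NSN GV oocytes, but 1.4 to 6.2 CPM in the 7 MII oocytes. The stages did not overlap, and Fanca fell by 2.77 ± 0.37 on the log2 scale (edgeR, adjusted p = 5.6e-06), 6.82-fold. The antisense neighbour Zfp276, with 920 shared exonic bases, had 46.7 CPM at GV and 30.9 CPM at MII. In FPKM, Fanca went from 9.15 ± 1.97 (SD, n = 6) to 2.09 ± 1.53 (SD, n = 7).

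Fance, which links the core complex to FANCD2, was the rarest member. It had 11 to 39 counts in the GV and 0 to 19 counts in the MII libraries, and the third NSN-MII library had 0 counts, which allows up to 3. In CPM this was 1.4 to 4.9 at GV and 0 to 2.4 at MII, so both stages overlapped. Fance fell by 1.77 ± 0.59 on the log2 scale (edgeR, adjusted p = 0.0135), 3.41-fold. In neither type alone did it pass the test, with adjusted p-values of 0.0937 in SN and 0.0694 in NSN oocytes. It did pass in 2 of 7 other settings in SN and in 3 of 7 in NSN oocytes, and in 1 of 13 fits without 1 library in each. Ube2t, described for each type above, fell by 2.17 ± 0.25 over both types, a mean of 2 unlike values. No p is given, since this mean includes the MII values by which Ube2t was chosen.

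Fancm, a DNA translocase that recruits the core complex to damaged DNA, had the largest rise of the members. It had 15.4 to 34.9 CPM in the GV and 64.9 to 102 CPM in the MII oocytes, with no overlap. The log2 fold change was 1.69 ± 0.21 (edgeR, adjusted p = 1.9e-06), 3.23-fold, with 1.66 ± 0.29 in SN and 1.73 ± 0.30 in NSN oocytes. The 3 members with an element in the last 100 bases of the 3′ UTR are thus Fancm, which rose, and Ube2t and Fance, which fell. The element in Fancm has no AATAAA or ATTAAA after it in the annotated transcript, where the nearest AATAAA starts 255 bases before the end. Fancb, a core subunit that binds FANCL, had 9.5 to 23.0 CPM at GV and 27.7 to 40.9 CPM at MII and rose by 0.96 ± 0.24 on the log2 scale (edgeR, adjusted p = 0.00205).

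Fancg had a pooled log2 fold change between the stages of 0.60 ± 0.20, the mean of both types described above. No p is given, since this mean includes the MII values by which Fancg was chosen. Fancc, which joins FANCE in the core complex, had 111 to 147 CPM at GV and 132 to 191 CPM at MII. Its log2 fold change was 0.25 ± 0.13 (edgeR, adjusted p = 0.106), and with library totals alone it was −0.05. That scaling lowered the median of all genes from −0.10 to −0.39, and relative to these medians the value of Fancc was 0.35 and 0.34.

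Fancd2 and Fanci encode the pair that receives the ubiquitin. Fancd2 had 90.03, 79.6 and 73.9 CPM in SN GV and 72.3, 9.5 and 111 CPM in NSN GV oocytes. It had 166, 207, 169 and 187 CPM in SN-MII and 128, 141 and 189 CPM in NSN-MII oocytes, all above the GV oocytes. Fancd2 rose by 1.21 ± 0.34 on the log2 scale (edgeR, adjusted p = 0.0049), 2.31-fold, and by 0.95 without the second NSN GV library (adjusted p = 5.4e-05). Within SN oocytes alone its adjusted p was 0.0441 and within NSN oocytes 0.0411, calls that were lost in 11 and 9 of the 13 fits with 1 library left out and in 6 and 2 of 7 other settings.

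Fanci had 69.2, 68.5 and 53.4 CPM in SN GV, 67.8, 12.9 and 88.3 CPM in NSN GV, 35.03, 54.7, 39.2 and 33.5 CPM in SN-MII and 71.2, 60.5 and 14.0 CPM in NSN-MII oocytes. The stages overlapped, and the log2 fold change of −0.43 ± 0.37 did not pass the test (edgeR, adjusted p = 0.317). It was −0.67 without the second NSN GV library (adjusted p = 0.0531) and −0.18 without the third (adjusted p = 0.683). RSEM divides reads that fit several genes, and counts were not whole numbers in 12 of 13 libraries for Fanci and for Fancl, in 9 for Fancm, in 6 for Fanca and in 1 for Fancd2. Its exons share 921 bases with Polg on the opposite strand, which had 7.70 CPM at GV and 3.35 CPM at MII.

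The CPM of Fancd2 over that of Fanci within an oocyte was 1.16 to 1.38 in SN GV and 0.74 to 1.25 in NSN GV oocytes. It was 3.77 to 5.59 in SN-MII and 1.80, 2.32 and 13.5 in NSN-MII oocytes. The ratio was therefore higher in every MII than in every GV oocyte. So was Fancd2 alone, and 47.4% of all genes did not overlap between the stages. No share was computed for ratios of other genes. The second NSN GV oocyte was low in both genes, at −2.94 for Fancd2 and −2.33 for Fanci as log2 ratios, after 1 CPM was added, to the median of the other GV oocytes. Only 0.111% and 0.600% of 10839 genes were as low or lower in that library. It also had the fewest genes with a count of the GV libraries (12699), and the part of this in the low values was not tested. Fanca, Fancb and Fancm were also below all other GV oocytes there, at −1.13, −0.93 and −0.77, while Ube2t and Fancc, at 0.15 and −0.05, were not. The third NSN-MII oocyte was low in Fanci (−1.67 against the other MII oocytes, with 4.13% of 10028 genes as low or lower) and not in Fancd2 (0.17). Its library had the fewest genes with a count of all libraries (11593).

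**Figure D2:**
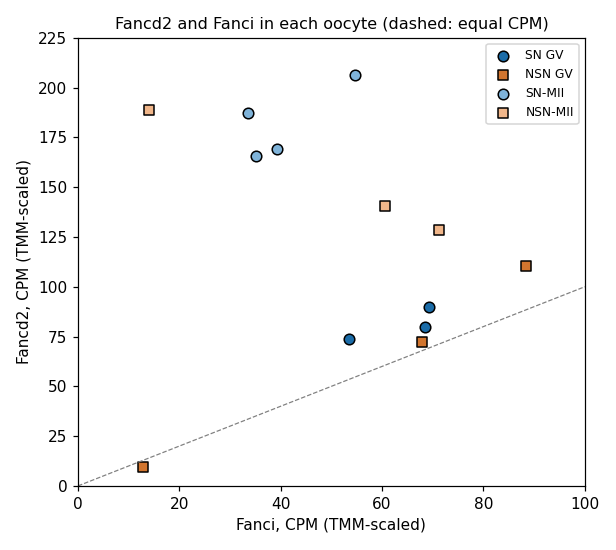
Fancd2 CPM (vertical axis) against Fanci CPM (horizontal axis), with 1 point per oocyte, circles for SN and squares for NSN, dark for GV and light for MII, and a dashed line at equal CPM. The GV oocytes lie near the line, including the second NSN GV oocyte at 12.9 and 9.5 CPM. The MII oocytes lie above it, and the third NSN-MII oocyte is at 14.0 CPM of Fanci and 189 CPM of Fancd2.

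Ube2t and Fancg were left out of the counts by type, since their values in each type bear on the contrast they were chosen by. Of the other 8 members in SN oocytes, 3 were called higher at MII (Fancb, Fancd2 and Fancm) and 2 lower (Fanca and Fancl), against 25.1% and 31.2% of all genes. The split of calls depends on the scaling, with 2855 of 6403 called genes higher at MII in SN oocytes by TMM and 1992 of 5971 with library totals alone. The same 3 and 2 genes were called in NSN oocytes, against 25.4% and 30.7%. The interaction of the other 8 members, given with no test, ran from −0.29 ± 1.19 (Fance) to 0.80 ± 0.72 (Fanca) on the log2 scale. With 1 library left out, Fance ran from −1.30 to 0.26, Fancl from −0.99 to 0.61, Fancd2 from −0.43 to 0.74 and Fanca from 0.49 to 1.15. The calls of Fancb in SN and in NSN oocytes were each lost in 2 of the 13 fits without 1 library, and in 3 and 1 of 7 other settings.

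**Figure D3:**
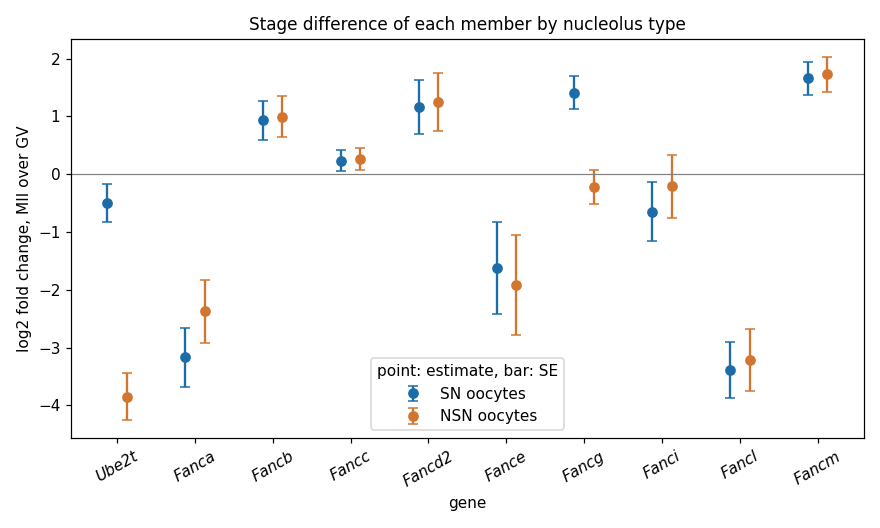
Log2 fold change from GV to MII of each member in SN (blue) and NSN oocytes (orange), with the estimate as a point and its SE as a bar. Ube2t stands at −0.50 in SN and −3.85 in NSN oocytes and Fancg at 1.41 and −0.22, while the bars of both types overlap for the other 8 genes.

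The other genes of the pathway were read from lists of 34 genes, of which 33 were tested between the stages. Of these, 13 rose, 12 fell and 8 did not pass the test, with a median log2 fold change of 0.03. These counts are near the background of 31.7% higher, 36.8% lower and 68.5% called. None of the 33 was called between the types at GV, and none of the 31 tested at MII, against 0% and 0.279% of all genes.

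Among 6 partners of the core complex, Fancf was not tested, with 0 to 2 counts in the GV libraries and none at MII. The other 5 fell, where 36.8% of all genes did, with a median of −1.93 beside −0.10 over all genes. Cenps (351 to 93.8 CPM, log2 fold change −1.89 ± 0.16, adjusted p = 2.4e-08) encodes a histone-fold protein that pairs with FANCM. Faap24 (19.0 to 2.05 CPM, −3.18 ± 0.30, adjusted p = 8.8e-08) encodes another partner of FANCM, and Faap20 (13.1 to 3.29 CPM, −2.07 ± 0.27, adjusted p = 3.3e-06) a partner of FANCA. Faap100, which binds FANCB and FANCL, and Cenpx, the partner of CENPS, fell by 1.93 ± 0.46 and 0.76 ± 0.18 on the log2 scale. These 2 are named because the list is short, after their values were seen. Fancm thus rose (25.97 to 84.2 CPM in the means of the 6 GV and 7 MII oocytes) while the mRNAs of its 3 partners fell.

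Of 13 genes for the control of the FANCD2 and FANCI pair and for its nucleases, 5 rose, 4 fell and 4 did not pass, near the 68.5% called among all genes. Ube2w, another E2 enzyme able to ubiquitinate FANCD2, fell from 248 to 31.8 CPM (log2 fold change −2.94 ± 0.15, adjusted p = 8.3e-11). Mus81, a structure-specific endonuclease, fell from 194 to 18.2 CPM (−3.41 ± 0.17, adjusted p = 8.4e-11). Ercc1, the partner of the crosslink nuclease XPF, fell from 15.9 to 0.47 CPM (−5.42 ± 0.42). It had only 0 to 9 counts in the MII libraries, so the size of its fall is uncertain. Dclre1a, a crosslink exonuclease, rose from 414 to 945 CPM (1.19 ± 0.12, adjusted p = 2.8e-07).

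Of 15 genes that act downstream, 8 rose, 3 fell and 4 did not pass, where 31.7% of all genes were higher, 36.8% lower and 68.5% called. Brca2, a gene of homologous recombination, rose from 127 to 413 CPM (log2 fold change 1.71 ± 0.19, adjusted p = 7.3e-07), and its partner Palb2 from 102 to 275 CPM (1.44 ± 0.20). Rev3l, the catalytic subunit of a lesion bypass polymerase, rose by 1.49 ± 0.18 and Blm, a helicase, by 1.40 ± 0.19. Rad51c, another recombination gene, fell from 48.5 to 20.1 CPM (−1.60 ± 0.25, adjusted p = 2.8e-05). Its mean was 28.3 CPM in SN-MII and 9.18 CPM in NSN-MII oocytes. This difference between the types, −1.65 ± 0.40 on the log2 scale, was not called.

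**Figure D4:**
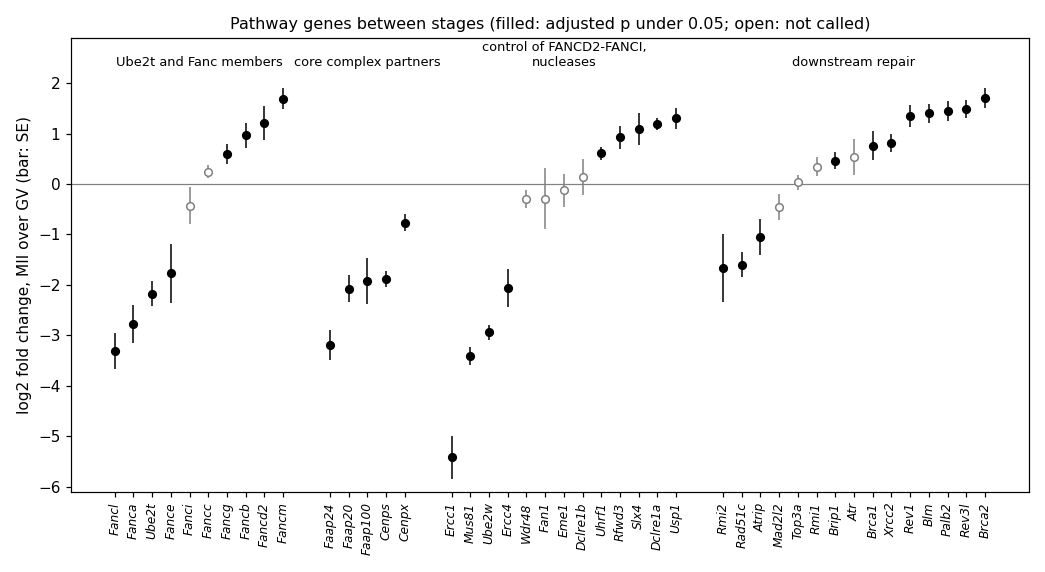
Log2 fold change from GV to MII (points, with SE bars) of the 10 members, 5 partners of the core complex, 13 genes for control and nucleases and 15 downstream genes. Filled points passed an adjusted p under 0.05 and open points did not. The fill of Ube2t and Fancg is not read, since they were chosen by their MII values. All 5 partners lie below 0, from −0.76 to −3.18, whereas the other groups hold genes on both sides.

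Ube2t was also set beside other E2 enzymes. At MII its difference between the types was the largest in size of 30 tested. The next was Ube2c, an E2 of the anaphase-promoting complex, with −1.65 ± 0.44 (143 CPM in SN-MII and 45.2 CPM in NSN-MII oocytes). Ube2c was not called. Between the types at GV Ube2t was at rank 16 in size of 32. From GV to MII it was the largest of 32 in NSN oocytes, ahead of Ube2a at −3.15 ± 0.26. In SN oocytes Ube2t was at rank 25, by a log2 fold change of −0.50. That value was −1.06 without the fourth SN-MII library, and the rank was not computed again. Since Ube2t was chosen for this pattern, its ranks are a description.

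The genes with the pattern most like that of Ube2t were found by Pearson's r of log2(CPM + 1) over the 13 libraries, among 7281 genes with a mean of at least 10 CPM. They were Dusp10 (r = 0.988), a MAP kinase phosphatase, Aurkb (r = 0.986), a kinase of the chromosomal passenger complex, Gemin8 (r = 0.977), Bub3 (r = 0.970), a spindle checkpoint gene, and Gna14 (r = 0.969). The points share their libraries and scaling, and the MII groups lie apart, so r is given with no p. In the order SN GV, NSN GV, SN-MII and NSN-MII, Dusp10 had means of 73.2, 58.7, 55.9 and 7.67 CPM, Aurkb 29.4, 25.4, 26.1 and 5.07 CPM and Bub3 260, 229, 189 and 67.6 CPM. Among the other members, r with Ube2t ran from −0.54 (Fancm) to 0.59 (Fancl), so none followed its pattern closely.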

How the data were processed

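The expected counts were deposited by the authors as RSEM 1.2.28 gives them, per gene and library, 1 table per stage, after Trim Galore 0.4.4 and Bowtie2 2.3.5 on mm10, as named in the submitters' processing notes, which also list DESeq2 1.20.0. FPKM values of all libraries, also from RSEM, are in another table the authors deposited. Reads that fit several genes are shared out by RSEM, so counts need not be whole. They were rounded, filtered with filterByExpr, scaled by TMM and tested with the quasi-likelihood test of edgeR 4.0.16 (R 4.3.3, robust), with p-values adjusted by Benjamini-Hochberg over all genes tested. Types were compared within a stage, and stages over the 13 libraries. SE is the absolute log2 fold change over the square root of F. With biological coefficients of variation of 0.344 to 0.364, spread between oocytes exceeds counting error except at the lowest counts. Steps were tested on simulated data. No 2 libraries were copies (highest r 0.982).

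The members and lists were chosen with earlier results of these data known. Named were all members, listed pathway genes that were called (at most 12 per comparison, by adjusted p), E2 enzymes that ranked highest and the 5 genes most like Ube2t. Alternatives were DESeq2 1.42.0, its size factors, no filter, 1 fit of all libraries, the replicate block, limma 3.58.1 (trend) on log2(FPKM + 1) and log2(FPKM + 0.1) (mean FPKM 1 or more), and leaving out each library. Library totals alone was added after seeing the data. Transcript ends were read from GENCODE M21. Of the downstream genes listed, 1 is not reported here.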

Additional observations from a re-analysis of the deposited data

Results flagged for a closer look

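Ube2t in the fourth SN-MII library stood apart from the other 3 oocytes of its group. It had 982 CPM, and the nearest had 362 CPM. This gap was 0.932 of the range of the group and passed Dixon's test at the 95% level, which chance does in about 1 of 20 groups. The difference of Ube2t between the stages was unlike in NSN and SN oocytes, with a log2 interaction of −3.35. No p is given, as Ube2t was singled out in earlier results by this contrast.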

How the results depend on the processing

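The count of genes called between the types at MII, 28, was the least stable. It was 218 with DESeq2, 57 with no filter, 74 with 1 fit of all libraries, 9 and 6 with limma at a pseudocount of 1 and 0.1, 16 with library totals alone, and 3 (without the first NSN-MII library) to 240 (without the third) with 1 library left out. With the replicate number as a block (replicate block) it was 3. Deviations of oocytes with the same number correlated at −0.46 to 0.20 over 12 pairs. Oocytes with different numbers were not compared, so whether the numbers pair oocytes cannot be told. Under this block Fancb at GV reversed to −0.0139, and in SN oocytes the stage calls of Fancb and Fancd2 were lost (adjusted p = 0.09 and 0.0772). Over the 7 settings other than leaving out a library, these calls were lost in 3 for Fancb and 6 for Fancd2 in SN oocytes, and in 1 and 2 in NSN oocytes. Member values between the types at GV, none of them called, reversed as follows. Fancb was −0.0108 in 1 fit of all libraries, and with 1 library left out the values ran from −0.50 to 0.0315 for Fanca, −0.23 to 0.32 for Fancb, −0.11 to 0.0177 for Fancc, −0.88 to 0.20 for Fancd2, −0.56 to 0.33 for Fanci, −0.16 to 0.0294 for Fancl and −0.30 to 0.17 for Fancm. Fanci from GV to MII in NSN oocytes, not called, ran from −0.68 to 0.28. With library totals alone Fancc was −0.052 over both types, −0.0622 in SN and −0.0419 in NSN oocytes. The causes were not tested. The planned test of members held only as FPKM was not run, since all 10 had counts. The counts at GV and between the stages stayed within 1.5 times in every setting.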
